A study of Homo sapiens with 58 samples.

Results

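HaCaT cells are a spontaneously immortalized line of human keratinocytes. HaCaT-vector is the derivative that carries an empty vector, so EGF acts on it only through the EGFR that HaCaT cells make themselves. The 8 arrays described here came from HaCaT-vector cells held in serum-free medium and harvested at 4 h: 4 arrays of cells given EGF and 4 arrays of starved cells given nothing. They were chosen by their labels as all arrays of this line, time and medium without an inhibitor, out of 58 Affymetrix U133 Plus 2.0 arrays in the series. By the study's methods, cells spent 12 h without serum before EGF was added at 10 ng/ml, and the same dose was used for TNF-α. The EGF arrays were processed on date 4 (replicates 2 and 3), date 5 (replicate 1) and date 6 (replicate 1), and the starved arrays on date 4 (replicate 3), date 5 (replicates 1 and 2) and date 6 (replicate 1). Set beside them are 5 EGF and 5 starved arrays of HaCaT-EGFR at 4 h, the derivative made to overexpress wild-type EGFR. HaCaT-vector also had 3 arrays with TNF-α at 4 h, 1 array with EGF and the PI3K inhibitor LY294002, and 1 array with EGF and the MEK inhibitor U1026, spelled as in the labels. Nothing in the labels says whether arrays of 1 group came from separate cultures or whether a line is 1 clone, so p-values measure the spread between arrays, which may be technical. That spread was estimated over all 58 arrays and not from these 8 alone, with harvest times of other groups pooled in the main fit.

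EGF binds EGFR, a receptor tyrosine kinase, which signals through RAS, RAF, MEK and ERK on one branch and through PI3K and AKT on another. In keratinocytes this signalling drives proliferation, survival and migration during wound closure and holds back terminal differentiation. The transcriptional response is known to come in waves: immediate-early transcription factors within the first hour, then delayed genes that include feedback inhibitors, ligands, matrix and adhesion genes. Harvest at 4 h falls in the later wave.

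Values are log2 intensities from which the study had already removed the effect of processing date, so each step of 1 multiplies the intensity by 2. Each of 19775 genes was read from 1 probe set. Array medians ran from 6.21 to 6.23 with EGF and from 6.26 to 6.29 without it, and each array correlated with the mean of the rest of its group at 0.997 to 0.999. All 11 measured keratinocyte markers had a starved mean above 7, with a median level of 11.62, whereas the median starved levels of fibroblast, melanocyte, leukocyte and endothelial markers lay at 5.08, 4.44, 4.38 and 3.99. A starved mean above 7 was also reached by 1 fibroblast and 1 melanocyte marker, and by 0 leukocyte and 0 endothelial markers. None of these 5 marker lists had a member past the threshold. EGFR itself was read by 9 probe sets. Their EGF minus starved differences ran between 0.09 and 0.49, and none passed.

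EGF changed a small set of genes. In bulk RNA, a change in every cell and a change in the share of responding cells cannot be told apart. Of 19775 genes, 199 passed the threshold (1.01%), of which 122 rose (0.617%) and 77 fell (0.389%), by limma with Benjamini-Hochberg adjusted p below 0.05. The median change was 0.62 on the log2 scale among those that rose and -0.56 among those that fell, against -0.01 over all genes. A change of at least 1 was reached by 26 genes that rose and 7 that fell. With every array centred on its own median, 131 genes rose and 31 fell, so the share that rose was 80.9% in place of 61.3%. More genes passed in fits of the 8 arrays alone: 675 with a date term, 2792 without it and 1005 with a replicate block and no date term. Fits with no date term count more residual degrees of freedom than the values hold. In these fits of the 8 arrays more genes fell than rose, with shares that rose of 45.2%, 40.3% and 40.9% in the same order. The number of calls rested on single arrays: it was 25 without the date 5 EGF array, 36 without either date 6 array, 62 without the date 4 starved array, 79 and 90 without the date 5 starved replicates 1 and 2, and 114 and 136 without the date 4 EGF replicates 2 and 3. Leaving out either date 6 array gave the same calls by construction, so tallies over the 8 fits count that outcome once for each of these arrays. None of the 199 genes changed sign in any of these fits, and 20 passed in every one of them.

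All 122 genes that rose had 4 EGF values above all 4 starved values, and all 77 that fell had 4 EGF values below them. Over all genes, 8.78% lay wholly above and 12.8% wholly below. These counts use the arrays that made the calls and are a description only. Removal of the date effect also draws the arrays of a group together, so a gap between groups is easier to reach than in values as scanned. Differences within a date are free of this. Among genes that rose the median difference was 0.57 on date 4, 0.64 on date 5 and 0.67 on date 6, and among genes that fell it was -0.55, -0.60 and -0.53.

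**Figure D1:**
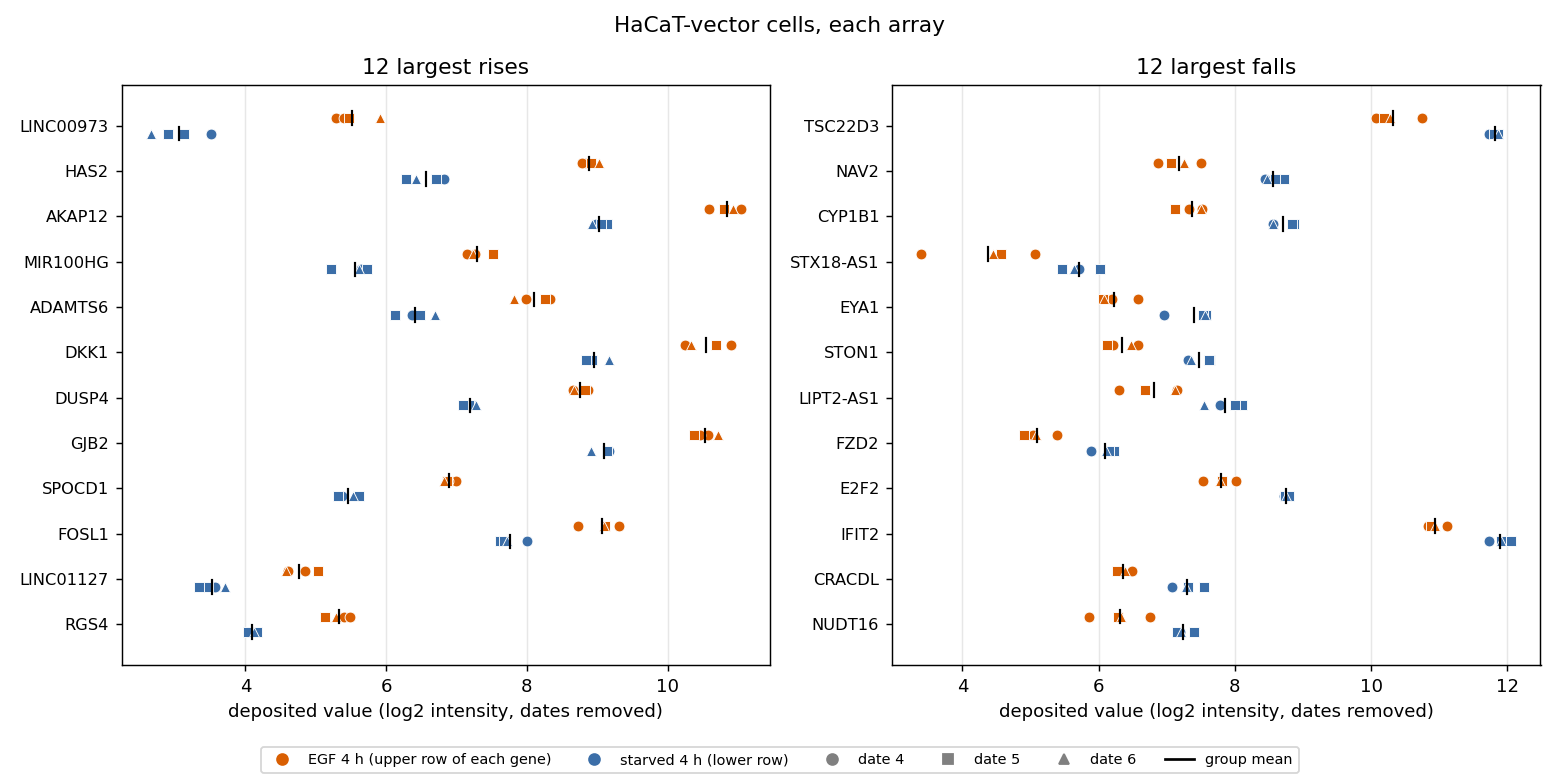
Deposited log2 intensity of each array (horizontal axis) for the 12 genes that rose most and the 12 that fell most with EGF, with EGF arrays in the upper row of each gene and starved arrays in the lower row, marker shapes for the 3 processing dates and a bar at each group mean. The groups do not overlap for any of the 24 genes, and HAS2 differs by 2.33 on the log2 scale.

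The genes with the largest rise included a matrix enzyme, a scaffold, a secreted inhibitor and non-coding RNAs. Per-array values follow the order of dates 4, 4, 5 and 6 for EGF and 4, 5, 5 and 6 for starved cells. HAS2, which makes hyaluronan, the glycosaminoglycan of the pericellular matrix, read 8.84, 8.79, 8.92 and 9.02 with EGF and 6.83, 6.28, 6.70 and 6.43 in starved cells. Its rise was 2.33 ± 0.26 (SE), or 5.03-fold, with an adjusted p of 1.07e-06. The starved arrays spread more widely than the EGF arrays, and even the highest starved value lay well under the lowest EGF value. LINC00973, a long non-coding RNA, read 5.28, 5.40, 5.47 and 5.91 with EGF and 3.51, 3.13, 2.90 and 2.66 in starved cells, a rise of 2.46 ± 0.41 (adjusted p = 0.000977). Its starved values lay far under the array medians, so the size of this difference may be understated and is not ranked against the others. Its within-date differences of 1.82, 2.46 and 3.25 on dates 4, 5 and 6 were uneven. AKAP12, a scaffold that anchors protein kinase A, stood at 10.59, 11.04, 10.80 and 10.94 with EGF against 8.98, 9.14, 9.05 and 8.93 without it, a rise of 1.81 ± 0.26 (adjusted p = 7.34e-05). DKK1, a secreted inhibitor of Wnt signalling, stood at 10.90, 10.25, 10.69 and 10.33 with EGF against 8.89, 8.93, 8.84 and 9.17 (1.58 ± 0.19, adjusted p = 4.63e-06). Both were already well expressed in starved cells, and neither group overlapped the other.

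MIR100HG, the host transcript of a microRNA cluster, had 7.27, 7.15, 7.52 and 7.24 with EGF and 5.65, 5.22, 5.73 and 5.61 in starved cells, a rise of 1.74 ± 0.27 (adjusted p = 0.000536). Like HAS2, LINC00973, AKAP12 and DKK1 it passed whichever of the 8 arrays was left out. ADAMTS6, a secreted metalloprotease, rose by 1.68 ± 0.31, a call that was lost without the date 5 EGF array. RGS4, which turns off G protein signalling, rose by 1.24 ± 0.32 with an adjusted p of 0.048, and SPOCD1 and LINC01127 by 1.43 ± 0.31 and 1.24 ± 0.29. Leaving out any of the 8 arrays ended the call of RGS4, and 7 of them that of LINC01127 and 4 that of SPOCD1. The other genes that rose and passed in every such fit were DUSP4, GJB2, NAV3, HMGA2, CAPRIN2, ST3GAL6, SOX9, HS3ST1, SGMS2, PTK2B, SYNJ2 and PLEK2. Among them HMGA2, an architectural chromatin protein, rose by 1.08 ± 0.18, and SOX9, a transcription factor of epithelial stem cells, by 0.89 ± 0.15.

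The 12 deepest falls included TSC22D3, NAV2, STX18-AS1, CYP1B1, EYA1 and STON1. TSC22D3, also called GILZ, a leucine zipper protein induced by glucocorticoids and by FOXO factors, read 10.07, 10.75, 10.20 and 10.28 with EGF and 11.74, 11.86, 11.81 and 11.86 in starved cells. It fell by 1.49 ± 0.30 (adjusted p = 0.00661), to 0.355 times the starved level, and the call was lost without the date 5 EGF array or either date 6 array. The starved values sat close together, and the EGF value nearest to them was replicate 3 of date 4. NAV2, a neuron navigator protein, read 6.88, 7.50, 7.07 and 7.26 with EGF and 8.44, 8.72, 8.59 and 8.47 in starved cells (fell by 1.38 ± 0.23, adjusted p = 0.000977). CYP1B1, a cytochrome P450 that oxidizes steroids and aromatic hydrocarbons, read 7.32, 7.51, 7.12 and 7.51 with EGF and 8.55, 8.87, 8.84 and 8.56 in starved cells (fell by 1.34 ± 0.29, adjusted p = 0.0137). E2F2, an activator of genes for DNA replication, read 8.02, 7.53, 7.82 and 7.79 with EGF and 8.72, 8.74, 8.80 and 8.75 in starved cells (fell by 0.96 ± 0.18, adjusted p = 0.00251). NAV2, E2F2 and NCOA2, a nuclear receptor co-activator that fell by 0.63 ± 0.11, were the genes that fell and passed without each array in turn. CYP1B1 failed in 5 of the 8 fits.

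Among the other large falls, EYA1, a co-activator with phosphatase activity, fell by 1.18 ± 0.29, the Wnt receptor FZD2 by 1.00 ± 0.24 and STON1, an endocytic adaptor, by 1.14 ± 0.26. These calls were lost in 6 (EYA1) or 7 of the 8 fits that left out 1 array. The antisense transcripts STX18-AS1 and LIPT2-AS1 fell by 1.34 ± 0.27 and 1.04 ± 0.22. For STX18-AS1 the EGF arrays were uneven, at 3.40, 5.07, 4.57 and 4.44 against 5.71, 5.46, 6.01 and 5.63 in starved cells. Its call ended without the date 4 starved array or either date 6 array, and LIPT2-AS1 failed in 4 fits. CRACDL fell by 0.94 ± 0.23 and NUDT16, a nucleoside diphosphatase, by 0.93 ± 0.18. NUDT16 failed only without the date 5 EGF array and CRACDL in 7 fits.

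Of 27 measured feedback inhibitors of EGFR and MAP kinase 4 rose and 0 fell. Of these 27, 21 lay above 0, where 45.9% of all genes did (60.9% with centred arrays), and the list median was 0.27 against -0.01 for all genes. DUSP4, a nuclear phosphatase that inactivates MAP kinases, read 8.87, 8.65, 8.82 and 8.66 with EGF and 7.22, 7.18, 7.09 and 7.28 in starved cells, a rise of 1.56 ± 0.22 (adjusted p = 6.58e-05). The spread within each group was small beside the gap. DUSP5, an ERK phosphatase, rose by 0.82 ± 0.19, DUSP7 by 0.55 ± 0.14, and ERRFI1, also called MIG6, which binds and inhibits the EGFR kinase, by 0.81 ± 0.18. Leaving out 1 array ended the call of DUSP5 in 6 fits, of DUSP7 in 7 and of ERRFI1 in 4. SPRY4, a Sprouty inhibitor of RAS signalling, had 6.64 ± 0.09 with EGF against 5.96 ± 0.10 in starved cells (SD, n = 4 each), yet did not pass (adjusted p = 0.124). DUSP6, the cytoplasmic ERK phosphatase, likewise differed by 0.57 ± 0.20 with an adjusted p of 0.208.

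Of 11 measured ERBB receptors and EGFR ligands, 1 rose. TGFA, a ligand of EGFR, read 8.60, 8.78, 8.71 and 8.62 with EGF and 8.06, 8.06, 8.10 and 8.16 in starved cells, a rise of 0.58 ± 0.14 (adjusted p = 0.0246) that was lost in 7 of the 8 fits. The ligand EREG differed by 0.58 ± 0.18 (adjusted p = 0.13) and NRG1, a ligand of ERBB3 and ERBB4, by 0.64, and neither passed. HBEGF, another ligand of EGFR, differed by 0.25 ± 0.26.

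Immediate-early transcription factors had no common direction. Of 31 measured members 3 rose and 1 fell, 15 lay above 0, and the median was -0.06. FOSL1, the AP-1 subunit FRA-1, read 8.73, 9.32, 9.11 and 9.09 with EGF and 8.00, 7.62, 7.68 and 7.72 in starved cells, a rise of 1.31 ± 0.28 (adjusted p = 0.0115) lost without the date 5 EGF array or either date 6 array. MYC had 9.33, 9.31, 9.40 and 9.32 with EGF and 8.54, 8.46, 8.39 and 8.50 without it. Its rise of 0.87 ± 0.20 was even over arrays, although 6 of the 8 fits lost the call. KLF5, a factor of proliferating keratinocytes, rose by 0.45 ± 0.10. JUNB, another AP-1 subunit, fell by 0.55 ± 0.13, with EGF values between 9.73 and 10.21 and starved values between 10.43 and 10.54, and like KLF5 it lost its call in 5 fits. FOS, EGR1 and EGR3, which respond within the first hour, did not pass: FOS stood at 6.64 ± 0.24 with EGF and 7.40 ± 0.24 in starved cells, and EGR1 at 13.32 ± 0.07 and 13.53 ± 0.03 (SD, n = 4 each, adjusted p = 0.366 and 0.916). EGR3 differed by 1.51 ± 0.42, with starved values between 5.29 and 6.48, and had an adjusted p of 0.0769.

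Of 17 measured basal and stress keratinocyte genes 3 rose: LAMB3, the beta chain of the laminin that anchors basal keratinocytes, by 1.03 ± 0.22, ITGA2, a collagen receptor subunit, by 0.66 ± 0.16, and ITGA5, a fibronectin receptor subunit, by 0.48 ± 0.12. LAMB3 varied most among the EGF arrays, at 9.99, 10.91, 10.41 and 10.29 against 9.46, 9.20, 9.36 and 9.48 in starved cells. Of 20 junction genes 2 rose. GJB2, a connexin of gap junctions, read 10.58, 10.46, 10.38 and 10.72 with EGF and 9.16, 9.15, 9.14 and 8.91 in starved cells, a rise of 1.45 ± 0.25 (adjusted p = 0.00123). PKP2, a desmosome plaque protein, rose by 0.52 ± 0.12, and the connexin GJB6 differed by 1.11 without passing (adjusted p = 0.12). Of these genes GJB2 passed in every fit, whereas the calls of LAMB3 and PKP2 were lost in 6, of ITGA2 in 7 and of ITGA5 in all 8.

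Of 17 secreted proteases and plasminogen genes only TIMP1, a metalloprotease inhibitor, rose (0.53 ± 0.13). Yet 15 lay above 0, beside 45.9% of all genes, and 15 with centred arrays, beside 60.9%, and the median was 0.39. MMP1, the interstitial collagenase, had 7.60 ± 0.27 with EGF and 6.26 ± 0.21 in starved cells, and MMP10, stromelysin-2, had 6.39 ± 0.53 and 5.37 ± 0.27 (SD, n = 4 each). Their groups did not overlap, and their adjusted p-values were 0.162 and 0.326. Of 25 chemokines and cytokines only INHBA, a subunit of activin, rose (1.01 ± 0.22). INHBA stood among the brighter genes, with 11.74, 11.48, 11.86 and 11.64 with EGF and 10.85, 10.49, 10.63 and 10.71 in starved cells. IL24 ran from 4.23 to 6.40 over the EGF arrays and overlapped the starved arrays, at 3.36 to 4.26. CXCL8, a neutrophil chemokine, differed by 0.91 ± 0.27 (adjusted p = 0.115). The call of INHBA failed in 4 fits and that of TIMP1 in 6.

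None of 33 keratinocyte differentiation genes passed, and their median was 0.10. Of these 21 lay above 0, beside 45.9% of all genes, and 22 with centred arrays, beside 60.9%. IVL, the cornified envelope protein involucrin, had the largest difference, with 8.42 ± 0.29 with EGF and 7.15 ± 0.23 in starved cells (SD, n = 4 each, adjusted p = 0.342). Likewise 0 of 17 Notch pathway genes, 0 of 12 genes of epithelial-mesenchymal transition, 0 of 9 prostaglandin genes and 0 of 8 mRNA decay factors passed.

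Few genes of the growth-related lists passed. Of 30 MYC targets and ribosome biogenesis genes 25 lay above 0, beside 45.9% of all genes, and 29 with centred arrays, beside 60.9%. The median was 0.20, and 2 rose: NOP2, a methyltransferase of ribosomal RNA, by 0.45 ± 0.11, and POLR1B, a subunit of RNA polymerase I, by 0.42 ± 0.11, calls lost in 8 and 7 fits. All 30 genes of G2/M and mitosis lay below 0, also with centred arrays, with a median of -0.22, but 0 passed. Their mean level ran from 8.83 to 8.88 over EGF arrays and from 9.06 to 9.12 over starved arrays, without overlap. Among them HMMR and CDC25C differed most, by -0.51 and -0.49 (adjusted p = 0.2 and 0.085). Of 33 G1/S genes only E2F2 fell. Of 35 FOXO-induced and growth-arrest genes 29 lay below 0, beside 54.1% of all genes, and 24 with centred arrays, beside 39.1%, and the median was -0.25, yet 1 member fell, TSC22D3, and 1 rose, IRS1, the insulin receptor adaptor (0.78 ± 0.18). TXNIP, an arrestin that restrains glucose uptake, ran from 9.34 to 10.75 with EGF and from 10.88 to 11.04 in starved cells and did not pass (adjusted p = 0.339). IRS1 lost its call in 6 fits.

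Cholesterol synthesis genes lay below 0 in 20 of 21 cases, beside 54.1% of all genes, and in 19 with centred arrays, beside 39.1%. Their median was -0.17, or -0.11 with centred arrays, with 0 calls. Likewise 0 of 25 glycolysis and hypoxia genes and 0 of 22 amino acid and ER stress genes passed. Of 22 interferon-stimulated genes 19 lay below 0, and 18 with centred arrays, beside the same shares of all genes. Among them 1 fell, IFIT2, an antiviral protein, by 0.95 ± 0.25 (adjusted p = 0.0485), with 10.84, 11.11, 10.88 and 10.94 with EGF against 11.73, 12.05, 11.91 and 11.90. That call failed whichever of the 8 arrays was left out. Of 26 NF-κB targets 0 passed. Among 24 targets of TGF-β and YAP, INHBA and TGFA rose and AMOTL2, a regulator of YAP, fell by 0.47 ± 0.10, a call lost in 4 fits. No list was tested as a set, and the counts stand beside the shares of 0.617% and 0.389% over all genes.

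**Figure D2:**
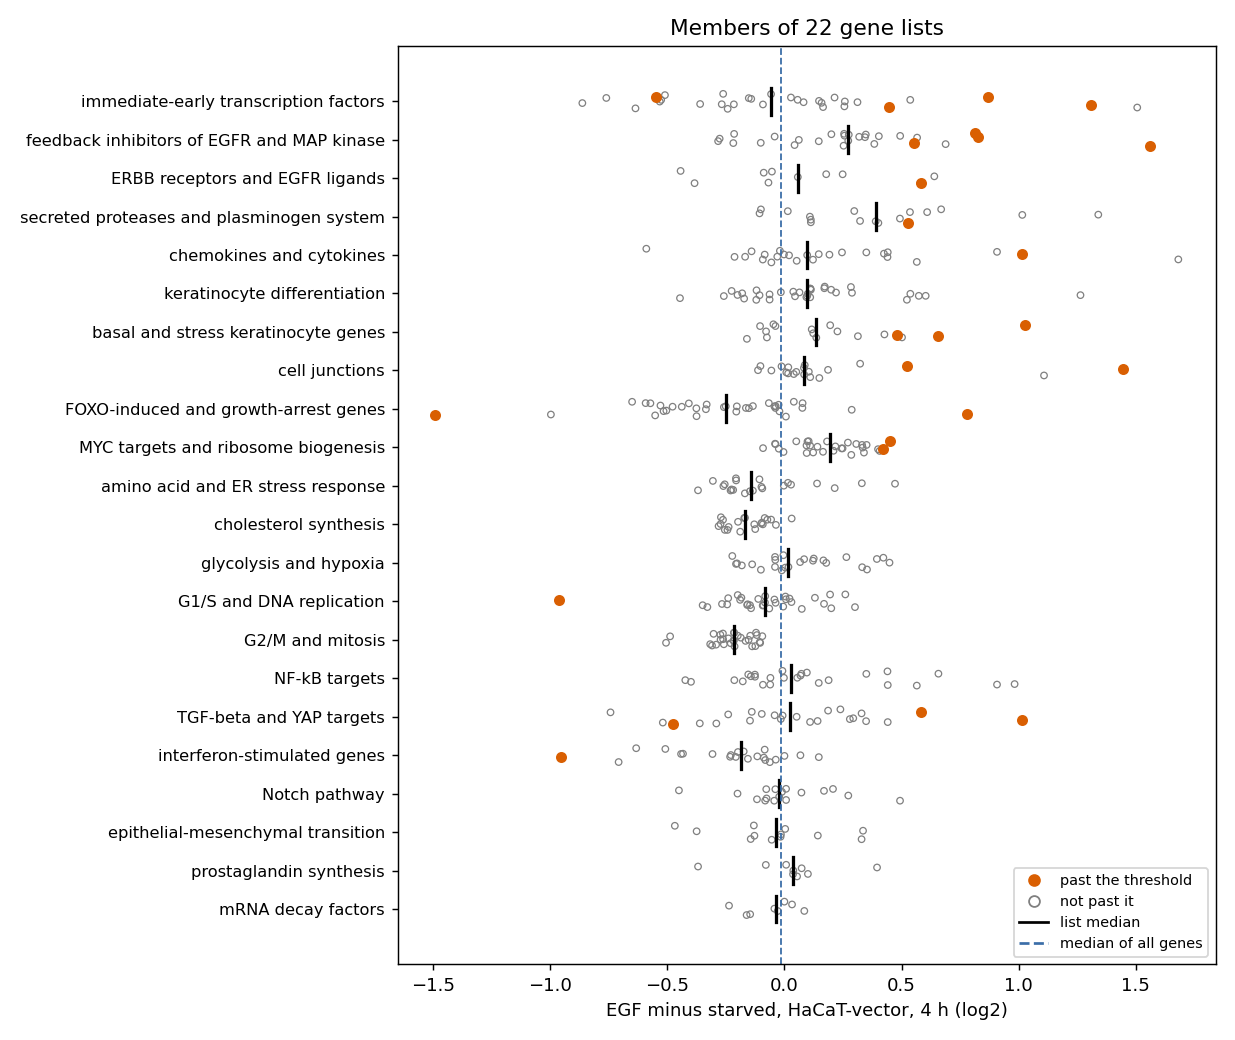
EGF minus starved difference on the log2 scale (horizontal axis) for each measured member of 22 gene lists, filled where the gene passed the threshold, with a bar at each list's median and a dashed line at the median of all genes. Feedback inhibitors hold 4 filled points above 0 and no filled point below it, and all 30 points of G2/M and mitosis lie left of 0.

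Genes outside these lists, chosen after their values were seen, included several of the actin cytoskeleton and focal adhesions that rose. They were FHL2 (0.49 ± 0.11), a LIM protein of focal adhesions, EZR (0.43 ± 0.09), which links membrane to actin, MYO1E (0.57 ± 0.12), a class I myosin, ZYX (0.41 ± 0.11), VCL (0.39 ± 0.09), FERMT2 (0.55 ± 0.14) and MICAL2 (1.10 ± 0.20). EZR read 13.02, 12.98, 13.12 and 13.09 with EGF and 12.70, 12.63, 12.55 and 12.58 in starved cells, a narrow but complete gap. Rises in secreted or signalling genes chosen the same way included VEGFC (1.04 ± 0.19), a lymphatic growth factor, and SPHK1 (1.06 ± 0.25), the kinase that makes sphingosine phosphate. Leaving out 1 array ended the calls of MICAL2 and VEGFC in 1 fit each (the date 5 EGF array), of EZR and MYO1E in 3, FHL2 in 5, SPHK1 in 6, VCL in 7, and ZYX and FERMT2 in all 8.

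Promoters of genes that changed were searched for short motifs of the factors that MAP kinase signalling is known to act on. RefSeq promoters (GRCh38.p14, 250 bases before to 50 after the start) were matched by symbol for 159 of the 199 genes. The AP-1 motif TGACTCA, on either strand, occurred in 6 of 97 promoters of genes that rose (6.19%), in 0 of 62 of genes that fell and in 3.74% of all 15384 promoters. The CArG box bound by SRF occurred in 4 (4.12%), 1 (1.61%) and 1.22%, the E-box CACGTG in 12 (12.4%), 3 (4.84%) and 8.9%, and the CRE TGACGTCA in 3 (3.09%), 1 (1.61%) and 2.67%. The EGR motif GCGTGGGCG was in 0 of either group, against 1.14% of all. No overlap between motifs was removed, and the shares were not tested. 5 windows, cut at 20 bases after the start, were selected from the genes described here to show such matches, and others, among them LINC00973 and MYO1E with a CArG box, are not printed. The windows have CArG boxes and E-boxes in capitals in AKAP12 and FHL2 and AP-1 motifs in capitals in SPHK1, ITGA5 and EZR:
AKAP12 (chr6:151239717-151239986, plus strand): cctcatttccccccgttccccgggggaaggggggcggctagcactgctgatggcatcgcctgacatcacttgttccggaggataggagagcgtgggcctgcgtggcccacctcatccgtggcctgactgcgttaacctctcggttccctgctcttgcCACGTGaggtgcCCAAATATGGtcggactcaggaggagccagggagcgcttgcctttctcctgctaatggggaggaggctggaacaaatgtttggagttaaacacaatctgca
FHL2 (chr2:105438494-105438763, minus strand): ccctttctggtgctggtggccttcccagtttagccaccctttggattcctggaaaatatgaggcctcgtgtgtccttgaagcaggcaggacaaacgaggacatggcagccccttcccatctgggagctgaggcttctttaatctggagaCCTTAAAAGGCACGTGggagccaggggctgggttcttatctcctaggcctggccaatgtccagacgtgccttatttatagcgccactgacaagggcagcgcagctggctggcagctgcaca
SPHK1 (chr17:76382954-76383223, plus strand): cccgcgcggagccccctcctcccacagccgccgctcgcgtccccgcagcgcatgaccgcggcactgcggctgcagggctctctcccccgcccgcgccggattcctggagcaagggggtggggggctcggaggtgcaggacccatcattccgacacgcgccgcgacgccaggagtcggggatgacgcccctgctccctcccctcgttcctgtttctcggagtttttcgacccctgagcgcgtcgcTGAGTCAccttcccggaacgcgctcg
ITGA5 (chr12:54419247-54419516, minus strand): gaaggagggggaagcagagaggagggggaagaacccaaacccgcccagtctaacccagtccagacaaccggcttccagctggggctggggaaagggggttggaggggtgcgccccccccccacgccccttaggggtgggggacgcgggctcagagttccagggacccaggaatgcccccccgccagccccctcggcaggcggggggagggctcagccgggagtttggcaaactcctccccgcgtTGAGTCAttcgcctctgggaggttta
EZR (chr6:158818216-158818485, minus strand): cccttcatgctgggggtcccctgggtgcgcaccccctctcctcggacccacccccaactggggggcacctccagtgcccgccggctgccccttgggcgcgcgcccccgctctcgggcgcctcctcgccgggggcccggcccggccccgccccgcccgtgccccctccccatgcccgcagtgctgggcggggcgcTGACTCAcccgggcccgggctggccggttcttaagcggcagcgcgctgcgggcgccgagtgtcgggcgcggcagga
In AKAP12 the E-box began 93 bases before the start and the CArG box 81 bases before it, and in FHL2 the CArG box and E-box began 101 and 91 bases before it. The AP-1 motif began 6 bases before the start in SPHK1 and ITGA5 and 56 bases before it in EZR. A match is a description of the sequence, and binding was not measured.

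The response was next read in HaCaT-EGFR at the same time, in arrays that share no control with HaCaT-vector. None of the 9 EGFR probe sets differed past the threshold between starved HaCaT-EGFR and starved HaCaT-vector, with differences of -0.50 to 0.50 (lowest adjusted p = 0.24 by limma), and whether these probe sets lie within the introduced sequence was not examined. In HaCaT-EGFR, EGF changed 1057 genes (5.35%): it raised 550 (2.78%) and lowered 507 (2.56%). Of the 122 genes that rose in HaCaT-vector, 121 lay above 0 in HaCaT-EGFR (48.9% of all genes did) and 108 rose, with a median of 0.63. Of the 77 that fell, 76 lay below 0 (51.1% of all genes did) and 64 fell, with a median of -0.51. AKAP12 rose by 2.17 ± 0.21, HAS2 by 1.89 ± 0.22, LINC00973 by 1.52 ± 0.38, DUSP4 by 1.50 ± 0.18 and DKK1 by 1.01 ± 0.17 in HaCaT-EGFR, and TSC22D3 fell by 1.46 ± 0.27. The exceptions in sign were HMCN1, an extracellular matrix protein, and the antisense transcript BABAM2-AS2, at -0.06 and 0.05.

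**Figure D3:**
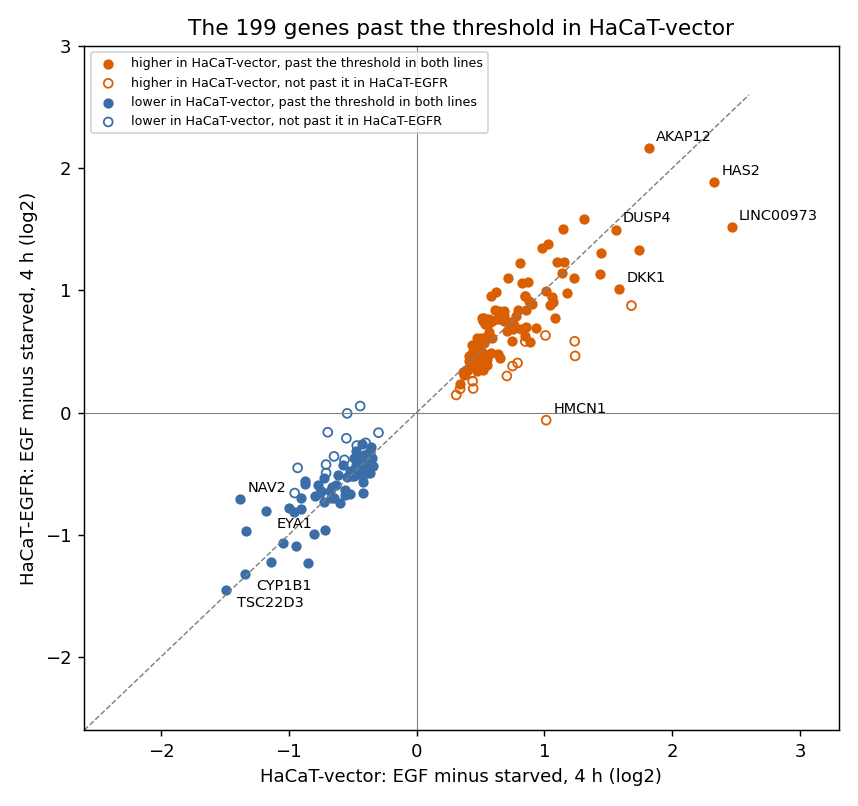
EGF minus starved difference at 4 h on the log2 scale in HaCaT-vector (horizontal axis) and HaCaT-EGFR (vertical axis) for the 199 genes past the threshold in HaCaT-vector, filled where the gene also passed in HaCaT-EGFR, with a dashed line of equality. The points lie in the quadrants of like sign except HMCN1 and BABAM2-AS2.

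No gene's response was shown to differ between the lines. The interaction, EGF response in HaCaT-EGFR minus that in HaCaT-vector, passed in 0 of 19775 genes by limma (0%), with 369 at an unadjusted p below 0.05, and in 0 genes with an intensity trend and robust prior, with 336. Both counts lie under a share of 0.05 of the genes, which a fit without any difference would give on average. They are therefore no list of near calls. HMCN1, which read far under the array medians, had a difference of -1.08 ± 0.27 (adjusted p = 0.986), LINC00973 of -0.94 ± 0.58, DKK1 of -0.57 ± 0.26 and NAV2 of 0.67 ± 0.27. Several genes that did not pass in HaCaT-vector did so in HaCaT-EGFR. SPRY4 rose by 1.27 ± 0.18 there, HBEGF by 0.98 ± 0.21, MMP10 by 2.31 ± 0.37 and MMP1 by 2.11 ± 0.39. Their interactions of 0.58 ± 0.27, 0.73 ± 0.32, 1.30 ± 0.57 and 0.77 ± 0.59 did not pass, which does not show that the lines respond alike. Feedback inhibitors had 13 of 27 members past the threshold in HaCaT-EGFR, all higher, beside 2.78% of all genes, with a median of 0.37. All 30 G2/M genes again lay below 0, beside 51.1% of all genes, with a median of -0.27. Of these G2/M genes 5 fell, beside 2.56% of all genes.

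EGF and TNF-α, a ligand of another receptor class that activates NF-κB, were compared directly in HaCaT-vector. Both responses share the starved arrays, so only the contrast of 4 EGF with 3 TNF-α arrays was used as a test. It passed for 278 genes (1.41%), with 63 higher with EGF (0.319%) and 215 lower (1.09%). The largest differences included the chemokines CCL2, CXCL10 and CXCL11. CCL2 had 6.05 ± 0.26 with EGF and 10.97 ± 0.36 with TNF-α (-4.93 ± 0.51), and CXCL10 and CXCL11 differed by -3.72 ± 0.51 and -3.01 ± 0.35. TNFAIP2 and IGFL1, which are not chemokines, differed by -4.14 ± 0.50 and -2.76 ± 0.28. HAS2 was the largest on the EGF side, with 8.89 ± 0.10 with EGF and 6.09 ± 0.09 with TNF-α (2.80 ± 0.28, adjusted p = 1.61e-08). Of 26 NF-κB targets 22 were lower with EGF, as were 15 of 22 interferon-stimulated genes. IFIT2 had 10.95 ± 0.12 with EGF, 13.00 ± 0.23 with TNF-α and 11.90 ± 0.13 in starved cells.

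Of 27 feedback inhibitors 5 were higher with EGF than with TNF-α, beside 0.319% of all genes, among them DUSP4 (1.88 ± 0.23), SPRY4 (1.23 ± 0.23) and DUSP6 (1.14 ± 0.22). DKK1 (1.65 ± 0.21) and IRS1 (1.13 ± 0.19) were also higher with EGF. HAS2, DUSP4, DKK1 and IRS1 had risen over starved cells in the same 4 EGF arrays, so this contrast is no separate test of that rise. Other genes that EGF raised had like levels with both ligands: INHBA had 11.68 ± 0.16 and 11.94 ± 0.09, LAMB3 10.40 ± 0.38 and 10.38 ± 0.47, NAV3 8.62 ± 0.10 and 8.77 ± 0.17, and VEGFC 7.55 ± 0.07 and 7.53 ± 0.10 with EGF and TNF-α (SD, n = 4 and 3). Their differences of -0.26 ± 0.24, 0.02 ± 0.24, -0.15 ± 0.20 and 0.02 ± 0.21 did not pass.

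The inhibitor arrays were processed on date 6, with 1 array each, so they give values and no test. Since the EGF and starved HaCaT-vector arrays of date 6 helped to choose the 199 genes, comparisons that leave them out come first. The U1026 array lay below the LY294002 array for 110 of the 122 genes that rose, against 48.2% of all genes, and above it for 76 of the 77 that fell, against 51.8%. Arrays of HaCaT-EGFR were not in the contrast that chose the genes. Its EGF arrays did enter the shared spread and the date terms of that fit. In HaCaT-EGFR the U1026 array lay below the EGF mean of date 6 for 106 of the 122 (48.8% of all genes) and above it for 67 of the 77 (51.2%). The LY294002 array there lay below that mean for 54 of the 122 (48.6%) and above it for 36 of the 77 (51.4%).

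Single genes show the size of these gaps. HAS2 read 9.02 with EGF, 8.41 with EGF and LY294002, 6.95 with EGF and U1026, and 6.43 in the starved array. DUSP4 read 8.66, 9.27, 7.65 and 7.28 in the same order, and LINC00973 5.91, 5.70, 3.60 and 2.66. For these genes the U1026 array lay nearer to the starved than to the EGF array, and the LY294002 array nearer to the EGF array. The U1026 array still lay above the starved array, by 0.52 for HAS2, 0.37 for DUSP4 and 0.94 for LINC00973. Both reference arrays helped to choose these genes. RGS4 was otherwise: it read 5.29 with EGF, 3.85 with LY294002, 4.23 with U1026 and 4.13 in the starved array. INHBA had 11.64, 11.50, 11.61 and 10.71 in that order, so neither inhibitor array lay near the starved one. Over the 122 genes the U1026 array still lay above the starved array for 84 (47.4% of all genes did), with a median of 0.19, beside medians of 0.67 for EGF and 0.65 with LY294002. TSC22D3 read 10.28 with EGF, 10.44 with LY294002, 12.33 with U1026 and 11.86 in the starved array.

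**Figure D4:**
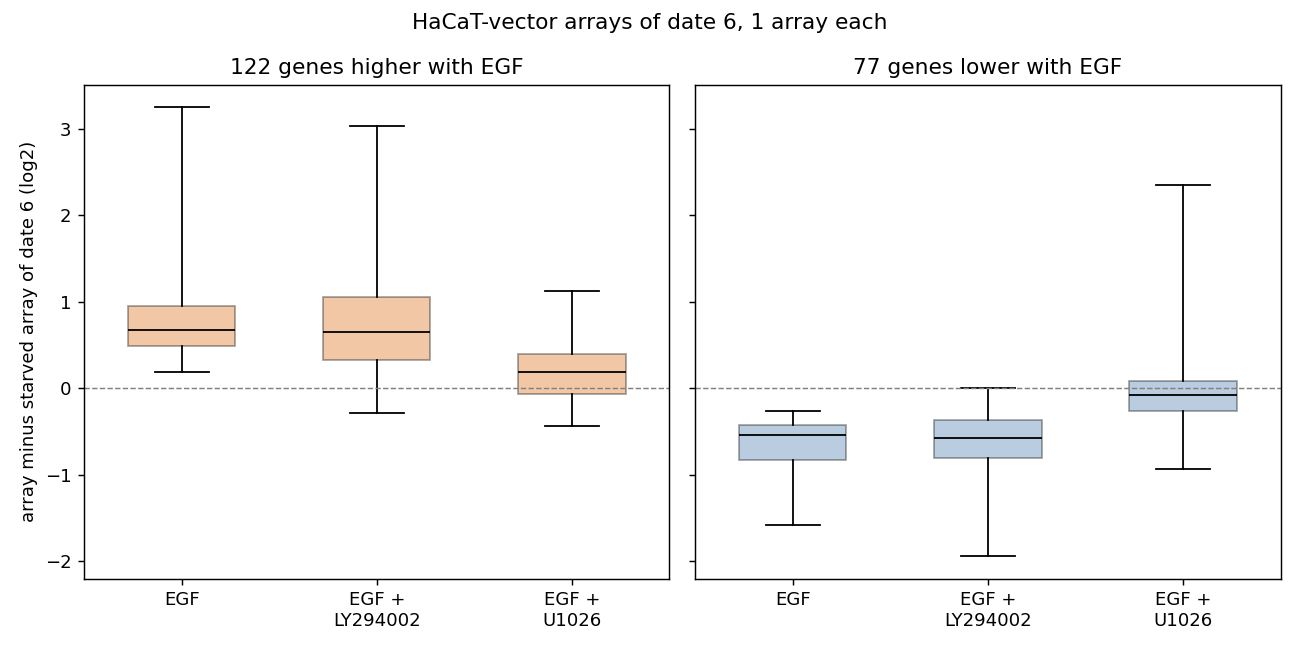
Difference from the starved HaCaT-vector array of date 6 on the log2 scale (vertical axis) for 1 array each of EGF, EGF with LY294002 and EGF with U1026, over the 122 genes that rose (left) and the 77 that fell (right), with boxes for quartiles, lines for medians and whiskers for the full range. The medians of genes that rose are 0.67, 0.65 and 0.19, and those of genes that fell are -0.53, -0.57 and -0.08.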

How the data were processed

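RNA of HaCaT lines was hybridised to Affymetrix U133 Plus 2.0 arrays. The authors ran fRMA on 54675 probe sets, estimated condition and date effects in limma, and deposited log2 values less the date effects. No further normalization was applied. Of the probe sets, 41097 had 1 gene symbol in the platform annotation and gave 19775 genes, each read from the probe set that was brightest on average over the 58 arrays. Of those probe sets 41043 matched the GRCh38.p14 RefSeq gene table, and 0 symbols changed. The labels give a Qiagen column isolation and one-cycle labelling for all arrays, while the study's sample sheet gives TRIzol and NuGEN amplification for date 6. Which is right is not known, and date 6 was left out as 1 alternative.

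limma 3.58.1 (R 4.3.3) fitted 18 conditions and 6 dates to 58 arrays (35 residual degrees of freedom), with Benjamini-Hochberg adjustment over all genes and a threshold of 0.05. These conditions pooled harvest times, so time differences within groups of other lines enter the spread. With times apart, 183 genes passed for EGF against starved, 161 of them among the 199. EGF was set against starved and against TNF-α. The difference between lines used 26 conditions with times apart (28 residual degrees of freedom), as did the HaCaT-EGFR response at 4 h. The fit was tested on simulated data. The number of arrays limits the precision, and each ± after a difference is a standard error. Inhibitor arrays had no replicates and no test.

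Named genes are the 12 largest rises and the 12 largest falls, up to 5 members of each of 27 gene lists by absolute change, EGFR, and the 6 largest differences between EGF and TNF-α. A call lost without 1 array is given with the number of such arrays. Genes outside the rule are said to be chosen after their values were seen. Members and lists were chosen with earlier results of these data known. Python 3.11.15 with pandas 2.3.3 and matplotlib 3.10.9 made counts and figures. Alternatives changed the date term, scaling, prior, low filter, arrays, probe set and pairing. The replicate numbers were not taken to pair arrays. Whether the starved and EGF arrays of a number share a culture was not given in the sources used here.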

Additional observations from a re-analysis of the deposited data

Results flagged for a closer look

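Within groups of 4 arrays, 74 groups of 37 genes named by the rule were checked for 1 array far from the others, and 3 had a gap, as a share of the group's range, above Dixon's limit for 4 values, which chance passes in about 1 of 20 groups. GJB2 was lowest in the starved date 6 array, at 8.91 against 9.14 for the nearest other. EYA1 was lowest in the starved date 4 array, at 6.97 against 7.53. IRS1 was lowest in the date 4 EGF replicate 3, at 8.96 against 9.23.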

How the results depend on the processing

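No gene named by the rule changed sign where it passed with either setting. The call count was 199, with 122 higher and 77 lower. It was 409 (221 higher, 188 lower) without the date term, 675 (305, 370) with only the 8 arrays and a date term, 2792 (1124, 1668) with these and no date term, 110 (68, 42) with the largest-variance probe set, and 29 (20, 9) without date 6. The deposited values already lack the date effect, so the fits with no date term count more residual degrees of freedom than the values hold. Centred arrays gave 31 lower genes and the low filter 119. Leaving out 1 array gave 25 to 136 calls, 20 to 85 higher and 5 to 58 lower. Losses without either date 6 array are the same set by construction, since both deviate by equal and opposite amounts once the date is removed. Between EGF and TNF-α, 128 genes were higher without the date term, and leaving out 1 array gave 146 to 242 calls, 24 to 49 higher and 122 to 196 lower. The interaction kept 0 calls throughout. Over 160 values of single named genes, each recomputed in every setting, a call was lost 199 times and gained 154 times. Of the losses 27 came without the date 5 EGF array and 26 without date 6, and of the gains 64 came with 8 arrays and no date term. All 199 genes kept their sign where tested in the same probe set. With the largest-variance probe set 195 did, and the signs of BICD1 (-0.65 in place of 0.63), SERPINB8 (-0.15, 0.53), FCHSD2 (0.05, -0.37) and FOXJ2 (0.23, -0.35) turned, none of them past the threshold there.

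The replicate block, with 8 arrays and no date term, gave 1005 calls (411 higher, 594 lower), of which 188 were among the 199. Deviations of the 4 same-numbered pairs correlated at 0.0835, -0.0465, -0.201 and -1, the last by construction. Removal of the date effect pushes arrays of 1 date toward opposite deviations. EGF and starved arrays of 1 date with unlike numbers correlated at -0.344 and -0.294. All same-numbered pairs but replicate 2 shared a date, so these correlations cannot decide whether the numbers mark pairs. The numbers were not taken as pairs because the sources used here do not give it. The replicate block ended 2 of the calls of named genes. Arrays measure no counts, and genes near background, such as LINC00973 in starved cells, may have their changes understated.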

Other observations

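Among arrays of date 6, the largest difference between the U1026 array and the EGF array of HaCaT-vector was in CYP1B1, which read 10.91 with EGF and U1026, 7.51 with EGF, 6.86 with EGF and LY294002 and 8.56 in the starved array. The U1026 array thus lay above the starved array by 2.35 on the log2 scale. In HaCaT-EGFR it read 8.66 with U1026, a mean of 6.07 with EGF, 5.57 with LY294002 and a mean of 7.28 in starved cells. Other genes that the aryl hydrocarbon receptor is known to induce, chosen after CYP1B1 was seen, were CYP1A1, TIPARP, AHRR and NQO1. In HaCaT-vector CYP1A1 read 5.19 with EGF and U1026, 3.65 with EGF and LY294002, 3.61 with EGF and 3.25 in the starved array, and TIPARP 10.54, 9.98, 9.70 and 9.57 in the same order. AHRR, a repressor induced by the same receptor, had 4.16, 4.10, 4.02 and 4.10. In HaCaT-EGFR the order differed for CYP1A1, with 4.15 with U1026, 4.26 with LY294002, and means of 3.79 with EGF and 3.89 in starved cells, and for AHRR, with 5.05, 5.54, 4.96 and 4.65. TIPARP had 10.45, 9.99, 9.84 and 9.61 there. NQO1 stayed flat, with 9.89, 9.90, 10.03 and 10.02 in HaCaT-vector and 10.25, 10.21, 10.20 and 10.27 in HaCaT-EGFR, in the same order. With 1 array per inhibitor these values have no replicate within a line.

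The 199 genes were read from 1 probe set each, and 131 of them have other probe sets, 311 in all. Of these 49 passed in the same direction, 0 in the other, and 280 had the same sign.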
